A study of Mus musculus with 8 samples.

Results

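The genes described here form the circadian clock of the mouse kidney and its nearest outputs. They are *Arntl*, *Npas2*, *Nr1d1*, *Nr1d2*, *Per1*, *Per2*, *Per3*, *Dbp*, *Tef* and *Ciart*, and they were chosen by name, with earlier results of these data known. Of the 55367 genes in the count table, 10 are thus members. All 10 passed the filter on low counts, which left 20149 genes for testing. RNA-Seq was performed on whole kidneys of 8-week-old C57BL/6J mice, 4 of them labelled Maf conditional KO and 4 labelled Maf flox/flox. Following the names used in the study, the former are called c-MafΔTAM and the latter c-Maf fl/fl or control, and each library, numbered in the labels as a replicate, is called a mouse here. All 8 mice carried floxed *c-Maf* alleles and all received tamoxifen (TAM), whereas only the c-MafΔTAM mice carried *CAG-Cre-ERTM*. The CAG promoter drives this TAM-dependent Cre recombinase in cells throughout the body, so the deletion was not limited to the kidney, and the control mice had TAM but no Cre. The labels and methods used here give neither the time of day of dissection nor the sex of the mice that gave these libraries.

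The circadian clock is a transcriptional feedback loop that runs in nearly every cell. A heterodimer of BMAL1 (the product of *Arntl*) with CLOCK or NPAS2 binds E-box sequences and activates *Per*, *Cry*, *Nr1d1*, *Nr1d2*, *Dbp*, *Tef* and *Ciart*. The PER and CRY proteins then repress the heterodimer, while the REV-ERB receptors encoded by *Nr1d1* and *Nr1d2* repress *Arntl* and *Npas2* through ROR response elements, so the 2 activator transcripts cycle nearly opposite to the others. In the kidney the clock is known to shape the daily rhythm of sodium and water transport, in part through the proline and acidic amino acid-rich leucine zipper factors DBP, TEF and HLF, which act on D-box sequences.

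The promoter sequences of 4 members are shown because each holds the letters of at least 1 of these elements. They come from the RefSeq windows of GRCm38.p6, which cover 250 bases before to 50 bases after an annotated transcript start, and they are written 5′ to 3′ on the strand of the gene with matching letters in capitals. The window of *Ciart*, at chr3:95882179-95882478 on the minus strand, holds 3 E-boxes (CACGTG). The window of *Per1*, at chr11:69098699-69098998 on the plus strand, holds an E-box and, nearer to the start, a D-box. The window of *Per3*, at chr4:151044616-151044915 on the minus strand, holds 2 D-boxes. The window of the second annotated start of *Arntl*, at chr7:113207261-113207560 on the plus strand, holds a ROR element, 30 bases after the start.
Ciart: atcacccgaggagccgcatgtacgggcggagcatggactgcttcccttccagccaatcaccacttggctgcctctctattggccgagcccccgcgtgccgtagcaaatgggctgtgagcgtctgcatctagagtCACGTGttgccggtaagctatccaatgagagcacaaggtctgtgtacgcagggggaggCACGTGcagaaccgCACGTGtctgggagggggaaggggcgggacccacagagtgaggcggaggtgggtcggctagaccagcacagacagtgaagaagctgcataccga
Per1: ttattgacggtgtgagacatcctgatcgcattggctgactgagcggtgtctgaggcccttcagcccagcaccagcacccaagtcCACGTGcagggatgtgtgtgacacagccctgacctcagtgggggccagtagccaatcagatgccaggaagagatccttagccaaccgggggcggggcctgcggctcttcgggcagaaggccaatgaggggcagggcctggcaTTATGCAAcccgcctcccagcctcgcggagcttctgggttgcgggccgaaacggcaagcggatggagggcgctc
Per3: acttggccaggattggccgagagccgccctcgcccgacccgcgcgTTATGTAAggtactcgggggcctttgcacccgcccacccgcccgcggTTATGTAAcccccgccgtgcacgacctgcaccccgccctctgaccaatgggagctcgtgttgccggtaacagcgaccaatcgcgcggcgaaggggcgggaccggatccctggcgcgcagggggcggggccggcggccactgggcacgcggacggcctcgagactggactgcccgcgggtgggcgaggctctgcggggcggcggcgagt
Arntl: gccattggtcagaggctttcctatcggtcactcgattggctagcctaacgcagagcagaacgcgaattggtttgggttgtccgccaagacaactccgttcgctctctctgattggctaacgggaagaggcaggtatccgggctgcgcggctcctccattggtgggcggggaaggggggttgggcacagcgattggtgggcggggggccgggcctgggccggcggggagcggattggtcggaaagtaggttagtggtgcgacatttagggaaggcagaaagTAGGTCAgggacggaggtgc

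In all, 9 of the 10 members matched 12 such windows, and *Per2* was the member without one. Both strands were searched for the letters CACGTG (E-box), CACGTT (a variant E-box), TTATGTAA, TTATGCAA or TTACGTAA (D-box), TAGGTCA or TGGGTCA (ROR element), TGACGTCA (cAMP response element) and TGCTGA (the half-MARE to which Maf proteins bind). CACGTG, TTACGTAA and TGACGTCA read the same on both strands, and no matches in the members' windows overlapped. An E-box occurred in the windows of *Ciart*, *Per1* and *Tef*, which is 4 of the 12 windows. Of the 32817 full-length mouse windows that were searched, called all windows here, 7.15% held one, and by gene the share was 8.09%. The variant E-box occurred in the window of *Nr1d1*, against 4.69% of all windows. D-box letters occurred in *Per1* and *Per3* (1.78% of all windows), and ROR letters in *Arntl* (6.46%). The half-MARE occurred in 0 of the 12 windows and in 19.5% of all windows, and the cAMP response element in 0 of the 12 and in 1.79% of all. These matches describe letters in short windows. The mapped sites of the factors were not measured here.

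Before the clock genes, the targeted gene and the libraries were checked. *Maf* was at 9.06, 34.5, 29.6 and 10.1 CPM (counts scaled to a common library size) in c-MafΔTAM mice 1 to 4 and at 379.9, 342.2, 305.4 and 351.1 CPM in control mice 1 to 4, so all 8 libraries fit their labels. CPM values here use library sizes adjusted by the trimmed mean of M values (TMM). Library totals ranged from 16649129 to 22990257 counts. One protocol label names liver as the source of RNA, but 4 hepatocyte markers summed to between 3.41 and 19.4 CPM, with 1 of the 4 at 0 in every library, against 8400 to 15680 CPM for 6 proximal tubule markers. Markers of perirenal fat summed to 52.7 CPM in control mouse 3 and to 10.9 CPM in c-MafΔTAM mouse 4, and to at most 1.53 CPM in the others. *Xist*, which is transcribed from the inactive X chromosome, had 2 counts in c-MafΔTAM mouse 1 and 6 and 22 counts in control mice 3 and 4, against 17618 to 22387 in the other 5 mice. Since *Xist* class and genotype are unevenly mixed, the members' log2 fold changes are given below both for all mice and for the 5 mice with high *Xist*.

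No clock gene passed the threshold between the genotypes. Of the 10 members, 0 were higher and 0 were lower in c-MafΔTAM mice at an adjusted *P* of 0.05 (edgeR quasi-likelihood test with Benjamini-Hochberg adjustment over all genes tested), against 2.16% of all genes tested, of which 0.586% were higher and 1.58% lower. At an unadjusted *P* of 0.05, 0 members were higher, against 6.58% of all genes, and 1 of 10, *Tef*, was lower, against 7.44%. In 0 of the 10 did the 4 mice of one genotype lie apart from the 4 of the other. In all genes tested, 4.17% had all c-MafΔTAM mice above all control mice and 5.62% had them below. The log2 fold changes of c-MafΔTAM relative to control were below 0 in 8 members and above 0 in the 2 activators, with a median of -0.33, whereas the median over all genes tested was 0.0027. The values in each library show a wide spread between mice of one genotype, with activators and targets in opposite order.

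**Figure D1:**
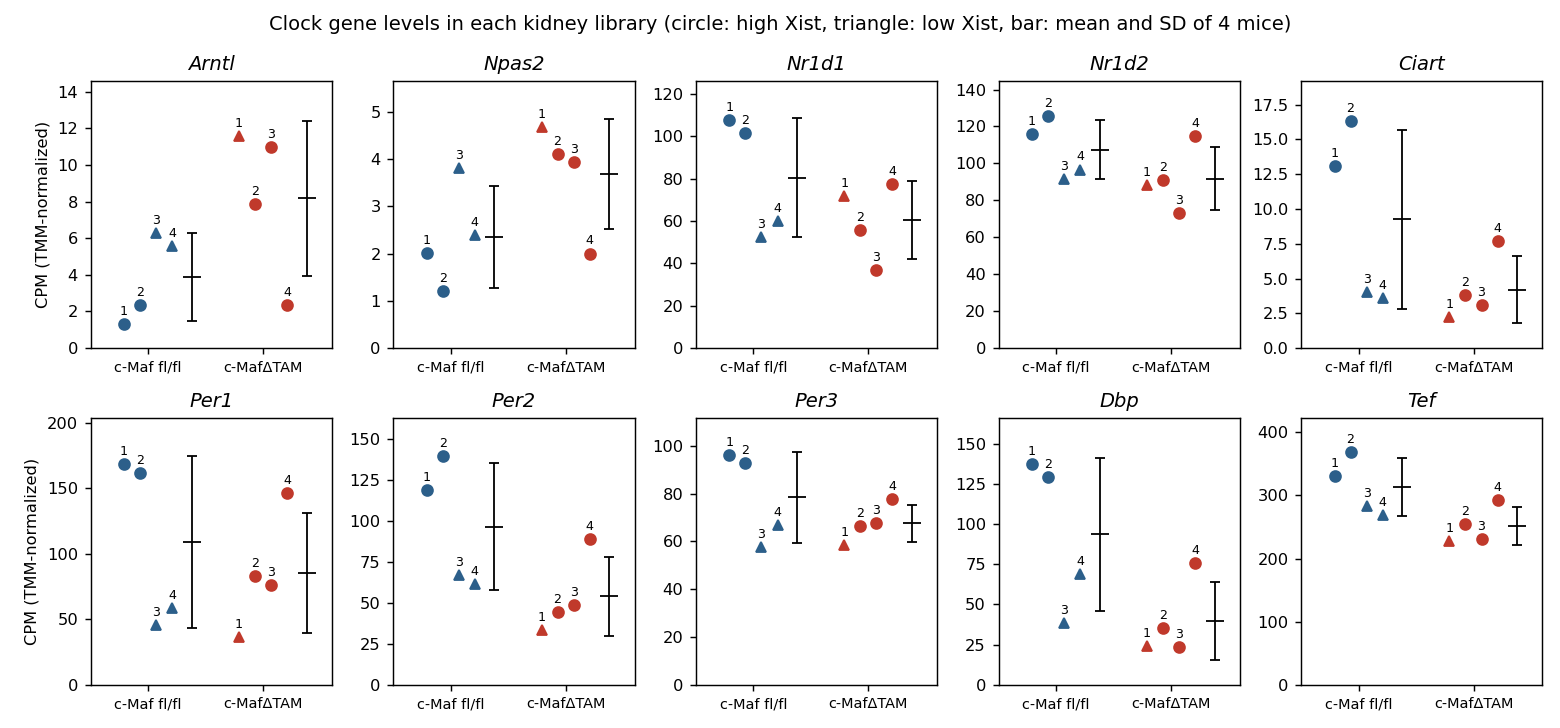
TMM-normalized CPM (y axes, linear from 0) of the 10 clock genes in the 4 control (c-Maf fl/fl, blue) and 4 c-MafΔTAM (red) mice, with mouse numbers, circles for high and triangles for low *Xist*, and the mean and SD of each genotype in black. In every panel the genotypes overlap, and c-MafΔTAM mouse 4 lies with control mice 1 and 2 rather than with the other c-MafΔTAM mice in *Arntl*, *Npas2* and *Per1*.

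Among the activators, *Arntl* (chr7:113207465-113314126, plus strand) encodes BMAL1, the subunit without which the clock stops. It was at 11.6, 7.86, 10.98 and 2.33 CPM in c-MafΔTAM mice 1 to 4 and at 1.32, 2.35, 6.29 and 5.57 CPM in control mice 1 to 4. Mouse 4 was thus the low one in c-MafΔTAM, and mice 1 and 2 were the low ones in control, so that the groups overlap. Its log2 fold change was 1.08 (SE 0.62, 95% confidence interval -0.36 to 2.53, adjusted *P* = 0.498). The counts behind it were few, from 27 to 227 per library. *Npas2* (chr1:39193731-39363236, plus strand) encodes the partner that can replace CLOCK. It was at 4.68, 4.11, 3.94 and 2.00 CPM in c-MafΔTAM mice and at 2.01, 1.22, 3.81 and 2.40 CPM in control mice, with 27 to 92 counts. The low libraries were those that were low in *Arntl*, with control mouse 4 close to them. Its log2 fold change was 0.65 (SE 0.35, interval -0.11 to 1.41, adjusted *P* = 0.446).

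The REV-ERB receptors, which repress both activators, showed the opposite order of libraries with a smaller range. *Nr1d1* (chr11:98767932-98775333, minus strand), encoding REV-ERBα, was at 71.6, 55.8, 36.8 and 77.5 CPM in c-MafΔTAM mice and at 107.5, 101.3, 52.6 and 59.9 CPM in control mice. It was highest in the 3 libraries that were lowest in *Arntl*, but c-MafΔTAM mouse 1 nearly reached mouse 4. The log2 fold change was -0.41 (SE 0.32, interval -1.16 to 0.33, adjusted *P* = 0.635). Of its 3077 exonic bases, 8.55% also belong to exons of *Thra* on the opposite strand, and reads there were left out of the deposited counts. *Nr1d2* (chr14:18204054-18239127, minus strand), encoding REV-ERBβ, was at 88.1, 91.0, 73.2 and 114.8 CPM in c-MafΔTAM mice and at 115.7, 125.9, 91.7 and 96.7 CPM in control mice. The same 3 libraries were the highest, within a range of 1.72-fold over the 8. Its log2 fold change was -0.23 (SE 0.14, interval -0.54 to 0.08, adjusted *P* = 0.521).

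*Ciart* encodes CHRONO, a repressor that binds BMAL1, and lies at chr3:95878503-95882251 on the minus strand. It was at 2.24, 3.80, 3.11 and 7.69 CPM in c-MafΔTAM mice and at 13.1, 16.3, 4.06 and 3.58 CPM in control mice. Its 3 highest libraries were again control mice 2 and 1 and c-MafΔTAM mouse 4, and the other 5 lay between 2.24 and 4.06 CPM, across both genotypes. Its range over the 8 libraries was 7.30-fold. The log2 fold change was -1.15 (SE 0.62, interval -2.59 to 0.30, adjusted *P* = 0.473).

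The period genes encode the repressors that give the loop its delay, and their libraries fell in a like order. *Per1* (chr11:69095217-69109960, plus strand) was at 36.3, 82.7, 75.8 and 146.1 CPM in c-MafΔTAM mice and at 168.6, 161.6, 45.4 and 58.9 CPM in control mice. The lowest and the third highest values both came from c-MafΔTAM mice, and the log2 fold change, -0.35, had an SE of 0.60 (interval -1.80 to 1.09, adjusted *P* = 0.855). *Per2* (chr1:91415982-91459324, minus strand) was at 33.6, 44.4, 48.9 and 89.0 CPM in c-MafΔTAM mice and at 118.8, 139.4, 66.8 and 61.3 CPM in control mice. Only c-MafΔTAM mouse 4 kept its genotypes from lying apart. Its log2 fold change was -0.84 (SE 0.40, interval -1.79 to 0.10, adjusted *P* = 0.418). *Per3* (chr4:151003652-151044665, minus strand) was at 58.6, 66.5, 67.7 and 77.5 CPM in c-MafΔTAM mice and at 95.9, 93.0, 57.8 and 66.7 CPM in control mice. Its range, 1.66-fold over the 8 libraries, was narrower than those of *Per1* (4.65-fold) and *Per2* (4.15-fold), and its log2 fold change was -0.21 (SE 0.16, interval -0.57 to 0.14, adjusted *P* = 0.612).

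The output factors *Dbp* and *Tef* had the lowest unadjusted *P* values of the 10. *Dbp* (chr7:45705088-45710203, plus strand) was at 24.4, 35.1, 23.7 and 75.5 CPM in c-MafΔTAM mice and at 137.5, 129.2, 38.4 and 68.9 CPM in control mice. Again c-MafΔTAM mouse 4 lay above control mice 3 and 4, and the log2 fold change of -1.24 (SE 0.57, interval -2.60 to 0.12), the farthest from 0 among the members, had an adjusted *P* of 0.405. Of its 2993 exonic bases, 18.0% are shared with exons of *Sphk2* on the opposite strand and were not counted. *Tef* (chr15:81802421-81826863, plus strand) was at 227.3, 253.9, 231.0 and 292.7 CPM in c-MafΔTAM mice and at 331.4, 368.6, 283.3 and 268.5 CPM in control mice. It was the member with the most counts, 4165 to 8166 per library, and with a range of 1.62-fold. Its log2 fold change was -0.32 (SE 0.12, interval -0.58 to -0.05), and the adjusted *P* over all genes was 0.260 by edgeR.

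**Figure D2:**
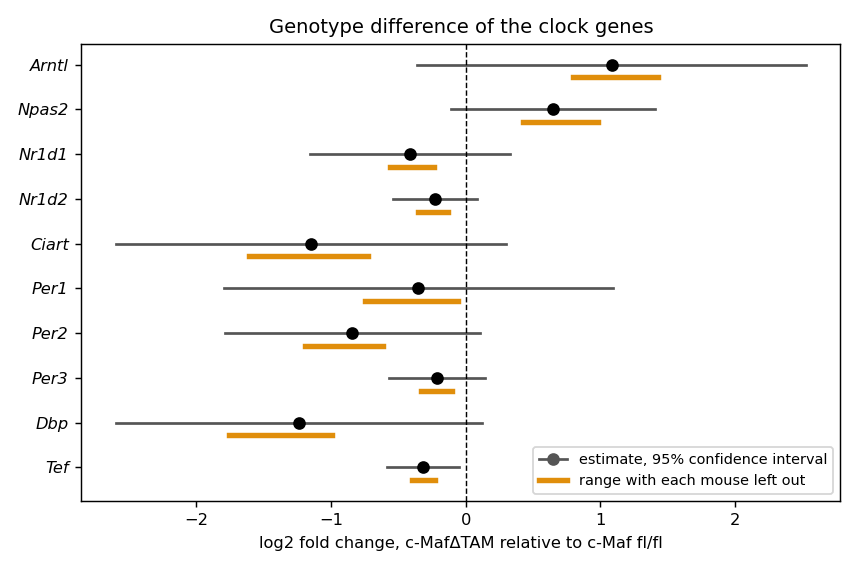
Log2 fold change (x axis) of each clock gene in c-MafΔTAM relative to control (c-Maf fl/fl) kidneys, with the 95% confidence interval (grey) and the range of estimates with each of the 8 mice left out in turn (orange). All intervals except that of *Tef* cross 0, and no estimate changed sign when a mouse was left out.

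Levels can be compared between genes only per length, so CPM was also divided by the exonic length in kilobases (RPKM). In control mice, *Tef* was the highest at 39.8 RPKM, followed by *Dbp* at 31.2, *Nr1d1* at 26.1, *Nr1d2* at 19.9, *Per1* at 19.3, *Per2* at 16.5, *Per3* at 8.16 and *Ciart* at 4.10 RPKM. The activators were at the bottom of this order, with 0.52 RPKM for *Arntl* and 0.49 RPKM for *Npas2*. In c-MafΔTAM mice *Tef* was likewise the highest, at 31.9 RPKM, and *Npas2* the lowest, at 0.77 RPKM, just under *Arntl* at 1.09 RPKM. In these mice *Nr1d1* was at 19.6, *Nr1d2* at 17.0, *Per1* at 15.1 and *Dbp* at 13.3 RPKM. The lengths include the exonic bases of *Dbp* (18.0%) and *Nr1d1* (8.55%) whose reads were left out, so these 2 levels are understated and their places are uncertain. The SD of *Dbp* in control mice was 47.8 CPM around a mean of 93.5 CPM. Neighbours in this order were thus not told apart for the members with wide ranges.

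The spread between mice of one genotype was larger in most clock genes than in most other genes. Among the 17484 genes with at least 1 CPM on average, the median SD of log2 CPM was 0.21 in c-MafΔTAM and 0.20 in control mice, whereas the medians of the 10 members were 0.56 and 0.62. For *Arntl* the SD was 1.06 in c-MafΔTAM and 1.03 in control mice, and 1.10% and 1.26% of those genes had a larger one. *Ciart* had SDs of 0.73 and 1.11 (3.20% and 0.984% of genes were larger), *Per1* of 0.82 and 0.98, and *Dbp* of 0.78 and 0.86. *Per2*, *Npas2* and *Nr1d1* lay between 0.48 and 0.65 in both genotypes. The spread of *Nr1d2* and *Tef* was near the usual one, with 36.3% and 61.4% of genes more variable in c-MafΔTAM mice, and *Per3* had an SD of 0.16 in c-MafΔTAM and 0.36 in control mice. The difference in spread between genotypes was not tested. *Arntl*, *Npas2* and *Ciart* have counts below 100 in several libraries, which adds counting error to their spread.

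**Figure D3:**
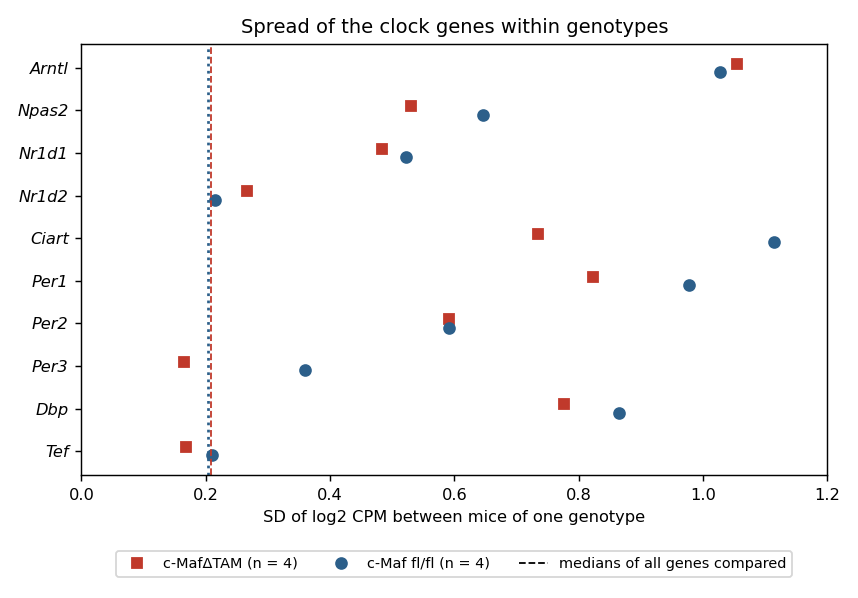
SD of log2 CPM between the 4 mice of each genotype (x axis) for the 10 clock genes, with squares for c-MafΔTAM, circles for control and vertical lines at the medians of the 17484 genes compared (dashed c-MafΔTAM, dotted control). *Arntl*, *Ciart*, *Per1* and *Dbp* lie farthest to the right, and *Tef* lies near the medians.

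The deviations of single libraries were shared among the members. Set against the mean over the 8 libraries, c-MafΔTAM mouse 4 and control mice 1 and 2 each had 8 of the 8 members other than the activators above the mean and 0 of the 2 activators above it. The counts were reversed in the other libraries. Of the 8, 1 was above the mean in c-MafΔTAM mouse 1, 0 in mice 2 and 3, and 1 each in control mice 3 and 4, while both activators were above it in all of these but control mouse 4, where only *Arntl* was. Measured against the mean of the own genotype, c-MafΔTAM mouse 4 and control mice 1 and 2 again had 8 of 8 above, and control mice 3 and 4 had 0 of 8. In c-MafΔTAM mice 1 and 3 it was 1 of 8 each, but in mouse 2 it was 4 of 8, with both activators above as well. The members are parts of one loop and were measured in the same libraries, so these counts describe the libraries and are not independent observations.

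The ratio of *Dbp* to *Arntl*, an output against its activator, put the libraries in a single order. It was 2.12, 4.46, 2.16 and 32.4 in c-MafΔTAM mice 1 to 4 and 103.8, 55.1, 6.11 and 12.4 in control mice 1 to 4. The ratio of *Nr1d1* to *Arntl* was 6.20, 7.11, 3.35 and 33.3 in c-MafΔTAM mice and 81.2, 43.1, 8.36 and 10.8 in control mice. In both ratios c-MafΔTAM mouse 4 lay between control mice 1 and 2 on one side and control mice 3 and 4 on the other, and the other 3 c-MafΔTAM mice were below all controls. Both ratios share *Arntl*, and no test was run on them, because the labels give no grouping of these libraries other than genotype. No hour of dissection could be set beside these values, so its part was not tested.

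**Figure D4:**
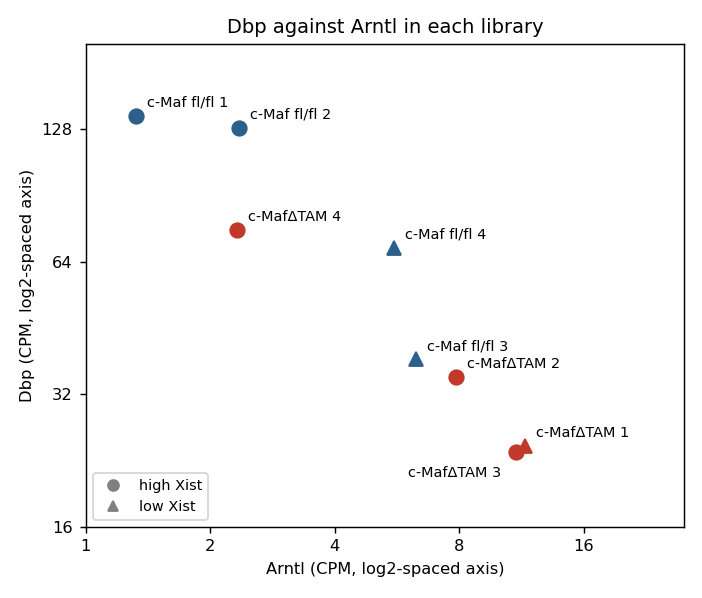
*Dbp* against *Arntl* in each library, both in CPM on log2-spaced axes, with c-MafΔTAM mice in red, control mice in blue, circles for high and triangles for low *Xist*. The libraries run from high *Dbp* with low *Arntl* (control mouse 1, 137.5 and 1.32 CPM) to low *Dbp* with high *Arntl* (c-MafΔTAM mice 1 and 3), with c-MafΔTAM mouse 4 on the side of the controls.

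Several measures of the libraries moved with this order in part. The 3 mice with low *Xist* were all below c-MafΔTAM mouse 4 in *Dbp*, but so were c-MafΔTAM mice 2 and 3, which have high *Xist*. The mitochondrial share of counts was 18.7% in c-MafΔTAM mouse 4 and 17.1% and 18.7% in control mice 1 and 2, against 32.3%, 22.1% and 21.6% in the other c-MafΔTAM mice and 18.7% and 25.5% in control mice 3 and 4. The residual level of *Maf* in c-MafΔTAM mice 1 and 4 was 9.06 and 10.1 CPM, with *Arntl* at 11.6 and 2.33 CPM in the same mice. The part of these measures in the order of the libraries was not tested.

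Among the 5 mice with high *Xist* (3 c-MafΔTAM, 2 control), all 10 members kept the direction they had over all mice, with estimates farther from 0. *Tef* (log2 fold change -0.43, adjusted *P* = 0.0264 by edgeR) and *Per3* (-0.42, adjusted *P* = 0.0132) were lower past the threshold, which makes 2 of 10 members against 2.22% of all genes tested in that fit. *Ciart* was at -1.60 (adjusted *P* = 0.0764), *Dbp* at -1.57 (0.394) and *Per2* at -1.09 (0.368). *Nr1d1* was at -0.88 (adjusted *P* = 0.417), *Per1* at -0.70 (0.521) and *Nr1d2* at -0.38 (0.414). The activators were at 1.93 for *Arntl* (adjusted *P* = 0.394) and 1.05 for *Npas2* (0.154). When *Xist* was a covariate in the fit of all 8 mice, 2 of 10 were also lower, namely *Tef* (-0.36, adjusted *P* = 0.0164) and *Ciart* (-1.28, adjusted *P* = 0.0449), against 4.23% of all genes. Neither fit called a member higher. In the fit of the 5 mice, both controls are the high-*Dbp* mice 1 and 2, so genotype and the order of the libraries cannot be told apart there. The covariate fit shares this limit. Control mice 1 and 2 and c-MafΔTAM mouse 4 all have high *Xist*, and every mouse with low *Xist* lies on the other side of that order. Among the mice with low *Xist*, the single c-MafΔTAM mouse was below both controls in 6 members, above both in *Arntl*, *Npas2* and *Nr1d1*, and between them in *Per3*.

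No partner of the members in the loop passed the threshold in the edgeR fit of all mice. Of 15 other clock genes, 0 were higher and 0 lower past the threshold, and their median log2 fold change was -0.0073. *Clock*, the usual partner of BMAL1, was at 78.5 to 99.9 CPM in c-MafΔTAM and 78.6 to 87.6 CPM in control mice (log2 fold change 0.17, SE 0.09, adjusted *P* = 0.450). The repressors *Cry1* (0.09) and *Cry2* (-0.02), the activating receptor gene *Rora* (-0.28), *Bhlhe40* (0.07) and *Hlf* (-0.07) had adjusted *P* values of 0.362 or more. *Bhlhe41*, encoding the E-box repressor DEC2, was at 3.05, 1.70, 3.11 and 4.87 CPM in c-MafΔTAM mice and at 10.1, 9.34, 3.81 and 4.93 CPM in control mice. Like *Dbp*, it was highest in control mice 1 and 2, and its log2 fold change was -1.15 (SE 0.38, adjusted *P* = 0.194). This miss depended on the fit, since *Bhlhe41* was lower past the threshold with DESeq2 (adjusted *P* = 0.0397), with *Xist* as a covariate (0.0481) and among the mice with high *Xist* (-1.59, adjusted *P* = 0.0321). Of the controls, that last fit holds only mice 1 and 2, in which *Bhlhe41* was highest. In all other alternatives *Bhlhe41* missed the threshold. These include edgeR's exact test (adjusted *P* = 0.0752), each change of scaling or filter, the replicate block and each mouse left out.

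*Nfil3* encodes E4BP4, the repressor that competes with DBP and TEF for the D-box. It was at 9.67, 12.7, 13.03 and 12.5 CPM in c-MafΔTAM mice and at 6.67, 12.6, 5.79 and 6.28 CPM in control mice, so that control mouse 2 alone lay within the c-MafΔTAM range (log2 fold change 0.61, SE 0.23, adjusted *P* = 0.270). Without that mouse *Nfil3* was higher past the threshold (0.94, adjusted *P* = 0.016), and without c-MafΔTAM mouse 1 *Rora* was lower past it (-0.43, adjusted *P* = 0.0395). The remaining partners with the lowest *P* values were *Fbxl21*, which was lower in all c-MafΔTAM mice than in any control but missed the threshold (-0.70, adjusted *P* = 0.153), and the casein kinase gene *Csnk1e* (0.17, adjusted *P* = 0.625).

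**Figure D5:**
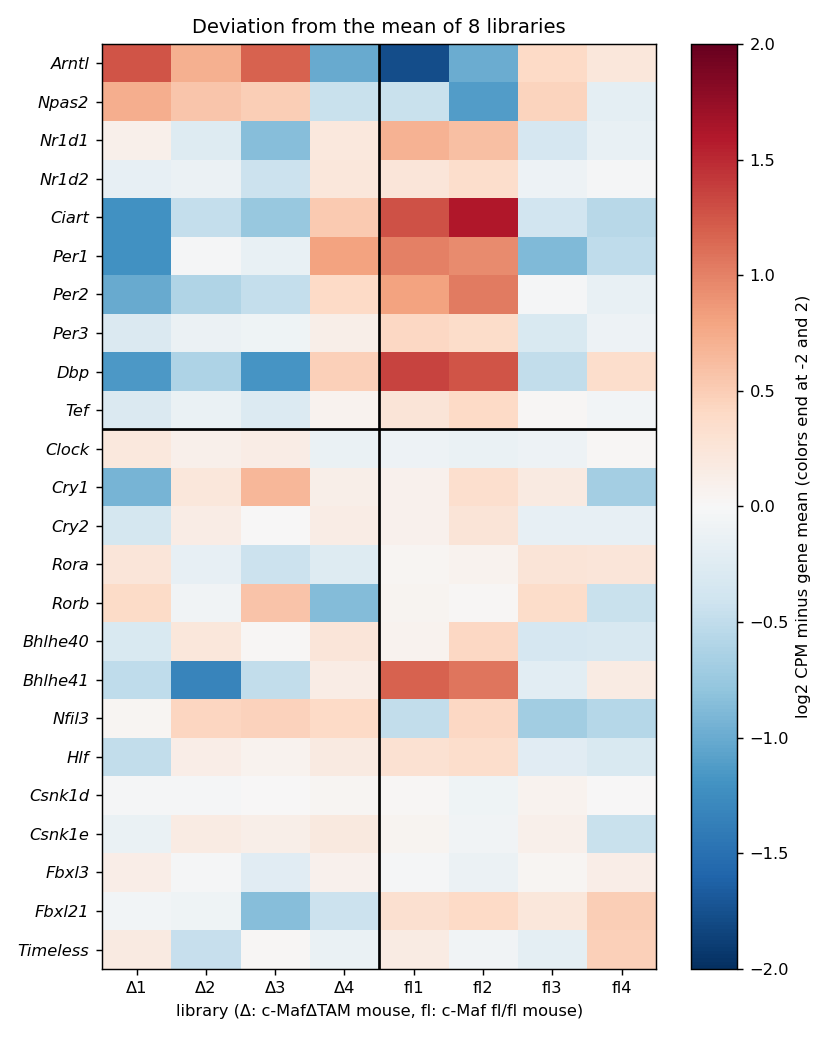
Deviation of log2 CPM from the mean of the 8 libraries (color) for the 10 clock genes (above the line) and 14 partners (below it), in c-MafΔTAM (Δ1 to Δ4) and control (fl1 to fl4) mice. In Δ4, fl1 and fl2 the rows from *Nr1d1* to *Tef* are red and the 2 activators blue, and among the partners *Bhlhe41* has its highest values in fl1 and fl2.

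Genes that follow the clock in many organs were read from a list of 12, which like the members was chosen with earlier results of these data known. Of these 12, 1 was higher and 1 was lower past the threshold, against 0.586% and 1.58% of the 20149 genes tested. *Dtx4*, encoding an E3 ubiquitin ligase, was at 31.2, 35.1, 39.6 and 26.0 CPM in c-MafΔTAM mice and at 16.9, 12.5, 17.7 and 23.5 CPM in control mice (log2 fold change 0.91, SE 0.19, adjusted *P* = 0.0318). *Por*, encoding the electron donor of microsomal cytochromes P450, was at 256.4, 276.1, 287.6 and 325.8 CPM and at 374.4, 415.3, 363.5 and 393.3 CPM (-0.43, SE 0.10, adjusted *P* = 0.0387). *Por* missed the threshold with edgeR's exact test (adjusted *P* = 0.0669) and also with upper-quartile or quantile scaling, and neither gene passed it when the replicate number was a term of the fit. The genotypes did not overlap in either gene, but within c-MafΔTAM mouse 4 was the nearest to the controls in both. With each mouse left out in turn, *Dtx4* stayed past the threshold in 2 of 8 fits, those without c-MafΔTAM mouse 4 or control mouse 4 (adjusted *P* from 0.00788 to 0.105 over the 8), and *Por* in 1 of 8, that without c-MafΔTAM mouse 4 (0.0251 to 0.134). The estimates of *Dtx4* ranged from 0.77 to 1.08 in these fits and those of *Por* from -0.50 to -0.38. *Cys1* (-0.20, adjusted *P* = 0.287) and *Tspan4* (-0.28, adjusted *P* = 0.329) were the next by *P* value.

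Of the same list, *Wee1* and *Usp2* are named after their values were seen. *Wee1*, a mitotic kinase gene with known E-box control, was at 11.4, 19.7, 18.5 and 32.3 CPM in c-MafΔTAM mice and at 36.2, 37.2, 22.6 and 24.4 CPM in control mice. *Usp2*, encoding a deubiquitinase of the clock, was at 111.9, 150.0, 128.4 and 202.3 CPM and at 220.4, 240.1, 139.6 and 141.8 CPM. In both, the 3 libraries with the highest *Dbp* to *Arntl* ratio were the highest, as in *Tspan4* and *Noct* but not in the other 8 genes of the list, and neither gene passed the threshold (adjusted *P* = 0.494 and 0.607). *Wee1* was lower past it with *Xist* as a covariate (-0.73, adjusted *P* = 0.0235), as was *Tspan4* (-0.33, adjusted *P* = 0.0444).

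Renal transport genes known to be under clock control were read from a list of 8, of which 7 were tested and 0 passed the threshold. The ones with the lowest *P* values were *Edn1*, encoding endothelin-1, which was at 2.34 to 2.83 CPM in c-MafΔTAM and 1.06 to 1.68 CPM in control mice (log2 fold change 0.91, adjusted *P* = 0.0755), and the sodium-proton exchanger gene *Slc9a3* (-0.37, adjusted *P* = 0.213). *Edn1* was higher past the threshold with edgeR's exact test (adjusted *P* = 0.0113), DESeq2 (0.0212) and *Xist* as a covariate (0.0452), but not among the mice with high *Xist* (0.129). *Slc9a3* was lower past it with the covariate (-0.44, adjusted *P* = 0.00433). *Sgk1*, the kinase gene that acts on the epithelial sodium channel, is named after its values were seen. It was at 64.6, 129.3, 117.4 and 203.4 CPM in c-MafΔTAM mice and at 257.4, 266.0, 98.0 and 58.8 CPM in control mice, an order close to that of *Per1*. The water channel gene *Aqp4*, also named after its values were seen, was at 113.5 CPM in c-MafΔTAM mouse 4 and 106.1 and 98.5 CPM in control mice 1 and 2, and between 39.1 and 58.5 CPM in the other 5 mice. The other 5 transport genes tested did not have these 3 libraries on top.

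Systemic signals that reach peripheral clocks were read from 3 further lists, in which *Tsc22d3* and *Sgk1* also belong to a list above. Of 8 glucocorticoid-responsive genes 0 passed the threshold, and all 8 had a log2 fold change below 0 (median -0.49), as did 9983 of all 20149 genes tested (median 0.0027). Their summed level was 655.2, 949.0, 732.7 and 1172 CPM in c-MafΔTAM mice and 1393, 1370, 1063 and 844.3 CPM in control mice, with the same 3 libraries on top. Gene by gene the list was split. *Zbtb16*, *Klf9*, *Mt2* and *Sgk1*, named after their values were seen, had these 3 libraries on top. *Fkbp5*, *Dusp1*, *Errfi1* and *Tsc22d3* did not. *Fkbp5*, a chaperone gene induced by the glucocorticoid receptor, was at 53.3, 57.0, 54.2 and 104.1 CPM and at 122.3, 122.6, 122.3 and 91.4 CPM (-0.77, SE 0.23, adjusted *P* = 0.160), and *Tsc22d3* was at -0.65 (adjusted *P* = 0.454). Unlike *Dbp*, *Fkbp5* was as high in control mouse 3 as in mice 1 and 2.

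Of 8 temperature-responsive genes 0 passed, with *Hspa8* (-0.38, adjusted *P* = 0.108) and *Hsph1* (-0.35, adjusted *P* = 0.327) having the lowest *P* values. The heat shock gene *Hspa1b*, named after its values were seen, was at 17.8, 20.9, 18.6 and 75.0 CPM in c-MafΔTAM mice and at 39.9, 69.3, 14.5 and 15.2 CPM in control mice, so that its 3 highest libraries were those in which *Dbp* was the highest. In the same list *Hspa1a*, *Dnajb1* and *Cirbp*, also named after their values were seen, had these 3 libraries on top, and the other 4 genes did not. Among the latter, *Hsp90aa1* was lowest in control mouse 1 (61.8 CPM) and c-MafΔTAM mouse 4 (69.1 CPM) and highest in control mouse 3 (140.6 CPM). Of 8 immediate early genes 0 passed, with *Ier2* (-0.43, adjusted *P* = 0.166) and *Egr1* (0.81, adjusted *P* = 0.490) having the lowest *P* values. *Egr1* was highest in c-MafΔTAM mouse 2, at 33.8 CPM, where the clock genes did not stand out. The part of these signals in the levels of the clock genes was not tested.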

How the data were processed

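Whole kidneys of 4 c-MafΔTAM and 4 c-Maf fl/fl mice were analysed by paired-end RNA-Seq after rRNA depletion. The authors deposited counts, whole numbers of reads assigned to exons of each gene name by featureCounts 2.0.1 with Ensembl release 102 (GRCm38), without normalization. Per the file headers, each read of a pair was counted singly, strand was ignored although the kit marks strand, and reads over exons of more than 1 gene were left out, so genes with antisense partners lose reads. The aligner is not given in the sources used here. The submitters' processing notes also list Subread 2.0.2 and edgeR 3.36.0. For the paper, the reads were processed on another route, with CLC Genomics Workbench and a quantile method, which was not repeated here. All columns of the table belong to the 8 samples.

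Genes were filtered with filterByExpr (20149 of 55367 kept), scaled by TMM (factors 0.857 to 1.11), and compared with the robust quasi-likelihood test of edgeR 4.0.16 in R 4.3.3, without covariates, with Benjamini-Hochberg adjustment over all genes tested and a threshold of 0.05. SEs were derived from the log2 fold change and its F statistic, and log2 CPM used a prior count of 2. Totals ranged from 16649129 to 22990257 counts, and the common biological coefficient of variation was 0.203. Libraries of one genotype differed by more than sampling noise (chi-square per degree of freedom at least 5.04), so none was counted as a copy. The labels number the samples as replicates and do not say that each was a separate animal, so *P* values measure the spread between these samples.

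Alternatives were RLE, upper-quartile and quantile scaling (limma 3.58.1), edgeR's exact test, DESeq2 1.42.0, filters of at least 1 count in any or at least 10 in every library, a replicate block, a covariate for the level of *Xist*, mice with at least 1000 *Xist* counts, the table without mitochondrial and rRNA genes, and each mouse left out. The scripts were tested on simulated data. The members and gene lists were chosen with earlier results of these data known. The 10 members were named in every library. Of the clock lists, *Clock*, *Cry1*, *Cry2*, *Nfil3*, *Hlf*, *Bhlhe40*, *Bhlhe41*, *Rora*, any gene past the threshold and the 2 others with the lowest *P* were named (1 further gene of the rule is not reported here), and of the signal lists any past the threshold and the 2 with the lowest *P*. Promoter windows are those of RefSeq on GRCm38.p6, searched as plain letters in Python 3.11.15.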

Additional observations from a re-analysis of the deposited data

Results flagged for a closer look

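In c-Maf fl/fl mouse 2, *Nfil3* was at 12.55 CPM, whereas the other 3 mice of that genotype lay between 5.79 and 6.67 CPM. The gap to the nearest of them was 0.869 of the range of the 4 mice. This was 1 of 38 sets of 4 mice examined, over genes and genotypes, and chance alone marks about 1 in 20 such sets. Its part in the call of *Nfil3* is given in the report.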

How the results depend on the processing

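All 10 clock genes kept the sign of their log2 fold change in each of the 19 alternatives. Of 190 values recomputed, 186 kept their side of the threshold and 4 passed it, namely *Tef* and *Ciart* with *Xist* as a covariate and *Tef* and *Per3* among the mice with high *Xist*. The number of members lower in c-MafΔTAM mice was thus 2 in each of these fits, against 0 in the fit reported. Over all genes, 436 were called in the fit reported, 1375 with the covariate, 789 among the mice with high *Xist*, 676 with edgeR's exact test and 886 with DESeq2. Of the other clock-list genes, 15 partners, 12 outputs and 7 transport genes were tested. In the fit reported 2 were called (*Dtx4* and *Por*), with 0.586% of all genes higher and 1.58% lower. With the covariate 7 were called, against 2.59% and 4.23% of all genes, and with DESeq2 4, against 1.58% and 2.81%. Among the mice with high *Xist* 3 were called (*Bhlhe41*, *Dtx4* and *Por*), against 1.53% and 2.22%. With edgeR's exact test 2 were called (*Dtx4* and *Edn1*), against 1.25% and 2.1%. With upper-quartile and with quantile scaling 1 each was called, *Dtx4*. With each mouse left out in turn, 239 to 452 genes and 0 to 2 of the other clock-list genes were called, and 0 members were. Among these fits the adjusted *P* of *Tef* was lowest without c-MafΔTAM mouse 4 (0.159, edgeR). The log2 fold changes moved widely, from -0.74 to -0.06 for *Per1*, -1.61 to -0.72 for *Ciart* and -1.75 to -0.99 for *Dbp*. Those of *Per2* ran from -1.19 to -0.61, *Per3* from -0.33 to -0.10 and *Tef* from -0.40 to -0.23. *Nr1d1* ran from -0.56 to -0.23, *Nr1d2* from -0.35 to -0.13, *Arntl* from 0.79 to 1.43 and *Npas2* from 0.43 to 0.98. The cause of these shifts was not tested.

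Replicate numbers did not pair the mice. The deviations of same-numbered mice from their genotype means correlated across genes with r of -0.37, 0.15, -0.11 and -0.33 for numbers 1 to 4. With a replicate block 129 genes were called, including 0 members and 0 of the other clock-list genes.

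*Arntl*, *Npas2* and *Ciart* had fewer than 100 counts in some libraries. With 4 mice a genotype, the 95% intervals given in the report reach beyond 1 on the log2 scale for *Arntl*, *Npas2*, *Nr1d1*, *Per1*, *Per2*, *Dbp* and *Ciart*. The labels do not say whether mice were dissected together.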
